A study of Homo sapiens with 6 samples.

Results

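HDGF was expressed at 113.6 FPKM ± 4.42 in 143B cells given a control siRNA and at 43.92 FPKM ± 1.21 in those given a SIGLEC15 siRNA (SD, n = 3 libraries each). Its paralogs PSIP1, HDGFL2 and HDGFL3 differed far less between the same libraries. The account covers these 4 genes, the HDGF family of PWWP-domain proteins, out of 58825 genes in the deposited table, and they were found by their gene symbol. They were chosen by the comparison of the siRNA groups, in which HDGF stood out by its lower count and FPKM, and the others were added as its relatives. The differences between the groups are therefore given for these genes as a description, with no test.

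143B is a human osteosarcoma cell line. Both groups were grown in medium with 10% fetal bovine serum and transfected with siRNA at 80 nmol/L for 36 h before RNA extraction, 3 libraries given the negative control and 3 given the siRNA labelled as a Siglec-15 knockdown. Poly(A) RNA was sequenced as paired ends. Every library came from this single cell line, and the labels name no other siRNA against the same target. They leave unsaid whether libraries of one siRNA were grown apart, so every error and p-value measures the spread between libraries, which may be technical.

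HDGF, heparin-binding growth factor, was first purified from the medium of cultured hepatoma cells. It acts both outside the cell, where it binds heparan sulfate, and in the nucleus, where its N-terminal PWWP domain binds DNA and nucleosomes. PWWP domains of this family read methylated lysine on histone H3 (H3K36 methylation), a mark of transcribed gene bodies. PSIP1 encodes LEDGF, which shares the PWWP domain, anchors the menin and KMT2A complex to chromatin and is the host tether of the HIV integrase. HDGFL2 carries a like integrase-binding domain, and HDGFL3 is a smaller relative that has been described in neurons as a microtubule-binding factor.

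The promoter windows of the family are shown so that the start regions of the members can be compared with each other. RefSeq (GRCh38.p14) gives 4 start sites for HDGF, 2 each for PSIP1 and HDGFL2 and 1 for HDGFL3, and all 4 members matched by symbol. For each gene the window printed is the one whose start lies nearest to that of the transcript listed first in the deposited table. That distance was 69 bases for HDGF, 49 for PSIP1 and 10 for HDGFL2. For HDGFL3, which has 1 window only, it was 49834 bases, so its window is not that of the first listed transcript. Each window runs 5′ to 3′ from 250 bases before its start site to 50 after it. Capitals mark GC boxes, the letters GGGCGG on either strand. HDGF lies at chr1:156751626-156751925 on the minus strand, PSIP1 at chr9:15510921-15511220 on the minus strand, HDGFL2 at chr19:4472047-4472346 on the plus strand and HDGFL3 at chr15:83207774-83208073 on the minus strand.
HDGF: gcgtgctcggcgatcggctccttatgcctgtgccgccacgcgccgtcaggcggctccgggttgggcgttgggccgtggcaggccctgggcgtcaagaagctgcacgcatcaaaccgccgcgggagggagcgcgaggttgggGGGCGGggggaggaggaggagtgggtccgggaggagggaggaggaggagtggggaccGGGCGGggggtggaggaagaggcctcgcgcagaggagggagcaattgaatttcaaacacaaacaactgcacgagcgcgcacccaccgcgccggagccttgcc
PSIP1: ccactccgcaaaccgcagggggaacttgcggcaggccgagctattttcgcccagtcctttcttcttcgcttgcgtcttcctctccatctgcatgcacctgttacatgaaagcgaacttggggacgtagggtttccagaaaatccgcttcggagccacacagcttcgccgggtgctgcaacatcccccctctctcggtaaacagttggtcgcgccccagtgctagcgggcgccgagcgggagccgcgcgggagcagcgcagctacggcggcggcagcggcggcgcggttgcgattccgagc
HDGFL2: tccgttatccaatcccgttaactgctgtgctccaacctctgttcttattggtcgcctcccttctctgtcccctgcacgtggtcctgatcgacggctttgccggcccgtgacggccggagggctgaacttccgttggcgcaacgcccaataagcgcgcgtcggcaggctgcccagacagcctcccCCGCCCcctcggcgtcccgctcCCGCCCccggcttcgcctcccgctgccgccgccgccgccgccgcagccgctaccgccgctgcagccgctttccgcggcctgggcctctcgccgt
HDGFL3: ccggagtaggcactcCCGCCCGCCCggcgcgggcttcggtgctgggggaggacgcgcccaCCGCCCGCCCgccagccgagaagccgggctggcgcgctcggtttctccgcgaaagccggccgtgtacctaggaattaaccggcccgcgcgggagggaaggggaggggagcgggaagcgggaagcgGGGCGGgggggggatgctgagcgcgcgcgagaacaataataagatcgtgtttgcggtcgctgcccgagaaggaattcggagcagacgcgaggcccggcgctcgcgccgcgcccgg

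All 4 windows were rich in G and C. The share of G and C was 70.3% in HDGF, 64.0% in PSIP1, 70.7% in HDGFL2 and 73.3% in HDGFL3, against a median of 58.7% over the 35116 windows of the table. CpG dinucleotides numbered 31 in HDGF, 33 in PSIP1, 39 in HDGFL2 and 47 in HDGFL3, where the median window held 14. GC boxes numbered 2 in HDGF, 2 in HDGFL2, 5 in HDGFL3, where some overlap, and 0 in PSIP1, and 45.0% of all windows held at least 1. The letters CCAAT stood 3 times in the HDGFL2 window and in none of the other printed windows (34.6% of all windows), and the E-box CACGTG stood in HDGFL2 alone among the 4 (7.26% of all windows). No printed window held TATAAA (11.5% of all windows), the ETS letters CCGGAAG (10.3%), the AP-1 letters TGAGTCA (4.95%) or the CRE letters TGACGTCA (1.85%). Both strands were searched for each motif, and CCGGAAG did occur in 1 of the 3 other HDGF windows. The choice of window matters: the other PSIP1 window held 2 GC boxes, the other HDGFL2 window held 2 CCAAT, and 2 of the other HDGF windows held CCAAT. These matches describe letters and not binding.

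Libraries held 57966691 to 67655254 counts. SIGLEC15, the gene the siRNA was made against, had 12, 10 and 22 counts in the control libraries 1, 2 and 3 and 12, 8 and 6 in the SIGLEC15 siRNA libraries, and these ranges overlapped. The edgeR log2 fold change was -0.82 (SE 0.598, quasi-likelihood test, Benjamini-Hochberg adjusted p = 0.529), and by exact permutation of the 6 libraries (log2(CPM + 1), two-sided) p was 0.2, with 0.1 the lowest value this design allows. A lower level of the target was thus not shown, and each group is called by its siRNA. Of 10 mesenchymal and bone markers 8 passed the filter on low counts, with vimentin (VIM) at 481.8 FPKM in the control group. THY1 was at 0 counts in all libraries, and COL1A2 was near 0. ALPL, though it passed the filter, was at 0.067 FPKM in the control group and 0.031 in the other. The osteoblast factor RUNX2 was at 0.327 FPKM ± 0.0543 in the control group and 1.31 ± 0.85 in the other. By edgeR 3 of the 8 (SPARC, COL1A1 and ENG) were called higher, where 2.22% of all tested genes were, and their part in the results was not tested. Summed FPKM of these markers was 570.9 to 610.2 in the control libraries and 565.6 to 610.3 in the SIGLEC15 siRNA libraries. VIM made up most of this sum and was at 437.2 FPKM in the SIGLEC15 siRNA group. SPARC went from 62.61 to 109.4 FPKM, so the like sums do not mean that single markers stayed level. The leukocyte markers had 4 of 5 genes at 0 counts everywhere, PTPRC and CD3E among them, and the 5 endothelial markers summed to at most 0.181 FPKM in any library. Of the 5 epithelial markers CDH1, KRT5 and KRT14 had no count, while EPCAM stood at 4.1 FPKM in the control group and 3.41 in the other.

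HDGF (ENSG00000143321, chromosome 1, 156742109 to 156766925, minus strand, as the deposited table places it) had 110.0, 112.4 and 118.6 FPKM in control libraries 1, 2 and 3 and 45.32, 43.23 and 43.22 FPKM in SIGLEC15 siRNA libraries 1, 2 and 3. All 3 control values lay above all 3 others, with a wide gap and little spread on either side. The values rest on 28962 to 32120 counts in the control libraries and 10912 to 13284 in the others, so counting error was small beside the difference. In CPM, counts scaled to library size with TMM factors, the level went from 497.3 ± 24.8 to 192.1 ± 8.06 (SD, n = 3 each). The edgeR log2 fold change was -1.37 (SE 0.0651), a level 2.59-fold lower, or 38.6% of the control. In bulk RNA, fewer cells that express a gene and less RNA per cell cannot be told apart.

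PSIP1 (ENSG00000164985, chromosome 9, 15464066 to 15510995, minus strand) had 37.43, 27.51 and 36.44 FPKM in the control libraries and 22.01, 32.36 and 35.39 FPKM in the SIGLEC15 siRNA libraries. The groups overlapped, with control library 2 and SIGLEC15 siRNA library 1 each low beside the other libraries of their group. PSIP1 was the most uneven of the family within a group, with a coefficient of variation of FPKM of 16.2% in the control group and 23.5% in the other, where HDGF had 3.89% and 2.76%. Its log2 fold change was -0.18 (SE 0.193). Without SIGLEC15 siRNA library 1 the value was -0.01, and without SIGLEC15 siRNA library 3 it was -0.32. Without control library 2 it was -0.31, and without control libraries 1 and 3, each in turn, it was -0.11 and -0.12.

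HDGFL2 (ENSG00000167674, chromosome 19, 4472297 to 4502208, plus strand) had 12.74, 11.67 and 14.09 FPKM in the control libraries and 11.35, 12.51 and 11.94 FPKM in the SIGLEC15 siRNA libraries. These ranges overlapped, and control library 3 held the highest value. The log2 fold change was -0.11 (SE 0.0904), and it was -0.03 without control library 3 and -0.18 without control library 2.

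HDGFL3 (ENSG00000166503, chromosome 15, 83112738 to 83207823, minus strand) had 5.08, 5.10 and 4.43 FPKM in the control libraries and 3.49, 3.66 and 4.04 FPKM in the SIGLEC15 siRNA libraries. The groups did not overlap, but the lowest control library and the highest SIGLEC15 siRNA library, both number 3, lay close together. Its log2 fold change was -0.38 (SE 0.0864), a level 1.3-fold lower, and leaving out 1 library at a time gave -0.45 to -0.35. HDGFL1 had 0 counts in all 6 libraries, which allows up to 0.0447 to 0.0509 CPM per library when a count of 0 is read as at most 3 counts.

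**Figure D1:**
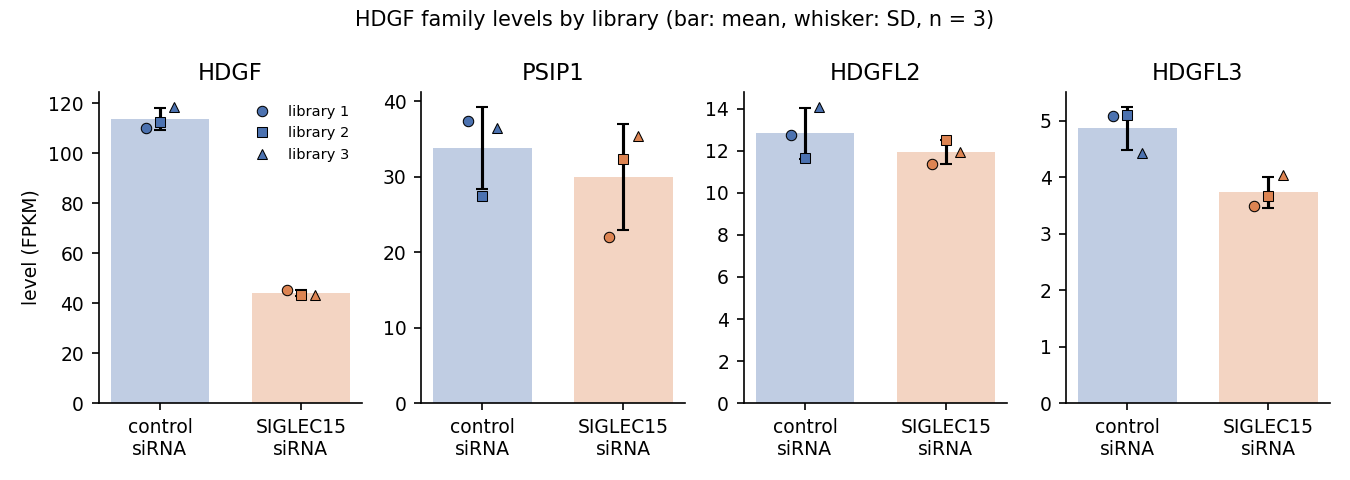
FPKM of HDGF, PSIP1, HDGFL2 and HDGFL3 in each of the 6 libraries, with 1 panel and 1 linear axis from 0 per gene. Bars are group means, whiskers are SD (n = 3) and symbols are libraries. The HDGF values lie at 110.0 to 118.6 FPKM and at 43.22 to 45.32 FPKM, while the PSIP1 and HDGFL2 groups overlap.

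All 4 log2 fold changes were below 0, in a data set whose median over the 18910 tested genes was -0.01. In CPM the groups did not overlap for 2 of the 4 members, HDGF and HDGFL3, both lower, and that was so for 13.7% of all tested genes on the lower side and 26.6% on either side. By the edgeR threshold of an adjusted p under 0.05, 1 of the 4, HDGF, was among the lower genes, which made up 2.43% of those tested. Since HDGF was picked for this difference, nothing is read from these counts. Over all tested genes 283 had a log2 fold change at or below that of HDGF.

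**Figure D2:**
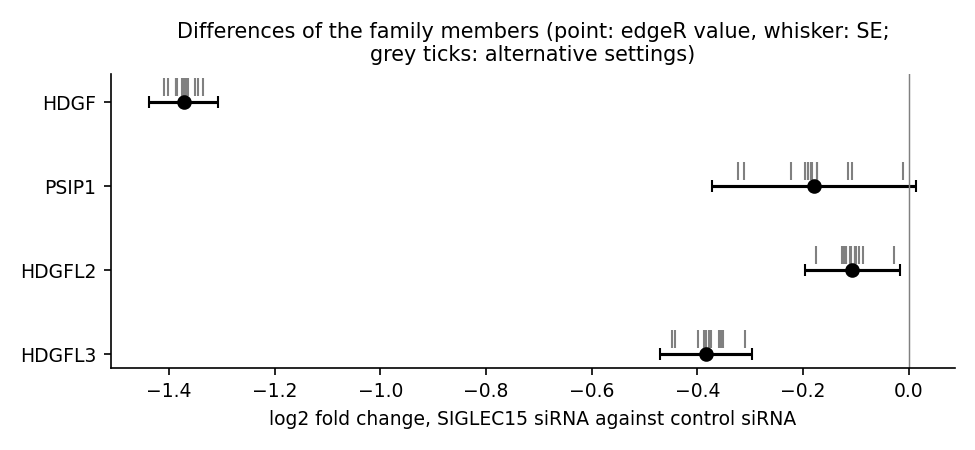
Log2 fold change of SIGLEC15 siRNA against control siRNA for the 4 members. Black points are edgeR values with their SE as whiskers, and grey ticks are the same value under each alternative setting. HDGF stays between -1.41 and -1.33, apart from HDGFL3 (-0.45 to -0.31), PSIP1 (-0.32 to -0.01) and HDGFL2 (-0.18 to -0.03).

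Levels between the members are compared per gene length, in FPKM. In the control group the order was HDGF (113.6 FPKM), PSIP1 (33.8 ± 5.46), HDGFL2 (12.83 ± 1.21) and HDGFL3 (4.87 ± 0.38; SD, n = 3 each), and no neighbours in that order overlapped in their 3 values. The order was the same in the SIGLEC15 siRNA group, with 43.92, 29.92, 11.93 and 3.73 FPKM, and again no neighbours overlapped, although PSIP1 at 35.39 FPKM in library 3 came near the HDGF values. HDGF ranked 314th of the 18910 tested genes by its mean control FPKM, above 98.3% of them. PSIP1 stood above 94.0%, HDGFL2 above 84.0% and HDGFL3 above 65.7% of the tested genes on that scale. The FPKM of all 4 genes followed from their counts with a fixed length in every library (coefficient of variation of the implied length at most 0.402%), so FPKM and counts carry the same differences. That length was 1.17 to 1.19 times the merged GENCODE exons of all transcripts of each gene. The order of the members and their shares rest on this length, and which transcripts were in use was not tested. HDGFL3 has 16253 exon bases in GENCODE 29 against 3745 for HDGF, and before this scaling it had more counts than HDGFL2 in all 6 libraries.

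HDGF made up most of the family's summed level in the control group and about as much as its paralogs together in the other. Summed over the 4 genes the family had 165.3, 156.6 and 173.5 FPKM in the control libraries and 82.17, 91.76 and 94.59 FPKM in the SIGLEC15 siRNA libraries. The HDGF share of this sum was 66.6%, 71.7% and 68.3% in the control libraries and 55.2%, 47.1% and 45.7% in the SIGLEC15 siRNA libraries, ranges that did not overlap. The PSIP1 share was 20.4% ± 2.59 in the control group and 33.2% ± 5.62 in the other, and the HDGFL2 share 7.76% ± 0.337 and 13.4% ± 0.643 (SD, n = 3 each). Shares of a sum move against each other, so the higher shares of the paralogs come with the lower HDGF and not with a higher level of their own.

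**Figure D3:**
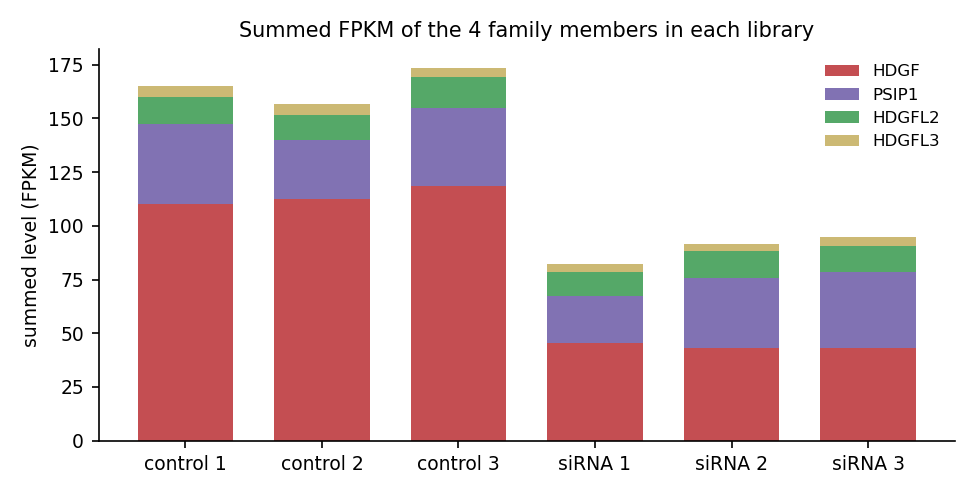
FPKM of the 4 members stacked for each library, on a linear axis from 0. The control libraries reach 156.6 to 173.5 FPKM and the SIGLEC15 siRNA libraries 82.17 to 94.59, and the HDGF segment accounts for most of the gap.

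Ratios taken within a library do not depend on how the libraries are scaled. HDGF stood 8.64, 9.63 and 8.42 times above HDGFL2 in the control libraries and 3.99, 3.46 and 3.62 times above it in the SIGLEC15 siRNA libraries, a difference of -1.27 in the mean log2 ratio. Against HDGFL3 the ratio was 21.65, 22.04 and 26.75 in the control libraries and 12.98, 11.8 and 10.69 in the others, a difference of -0.99 in the mean log2 ratio. Against PSIP1 it was 2.94, 4.08 and 3.25 in the control libraries and 2.06, 1.34 and 1.22 in the others, a difference of -1.18. For all 3 paralogs every control ratio was higher than every SIGLEC15 siRNA ratio. The ratio of PSIP1 to HDGFL2, which leaves HDGF out, was 2.63 ± 0.293 in the control group and 2.5 ± 0.518 in the other (SD, n = 3 each), and its values overlapped.

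Reads of the family can hardly be confused with one another. Of 3883 distinct stretches of 50 bases in the GENCODE 29 transcripts of HDGF, 0 occurred in a transcript of another member and 5 in any other gene, all of them in the pseudogene HDGFP1. HDGFP1 had 0 counts in 5 libraries and 1 count in control library 3. PSIP1 shared 2.25% of its stretches with other genes in the same sense and 0.671% in the antisense sense. For HDGFL3 these shares were 2.23% and 6.51%, mostly with a non-coding transcript and with TM6SF1 on the other strand, and for HDGFL2 they were 1.02% and 1.28%. No source used here says whether counting used strand.

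None of the tested genes around HDGF passed the edgeR threshold. PRCC, which encodes a nuclear protein, runs on the other strand and overlaps 16316 bases of the HDGF gene, but the exons of both share 0 bases in GENCODE 29. PRCC had 60.92, 61.07 and 73.08 CPM in the control libraries and 61.45, 62.71 and 67.89 CPM in the SIGLEC15 siRNA libraries (log2 fold change -0.02, SE 0.0955, edgeR adjusted p = 0.936). MRPL24, a mitochondrial ribosomal protein gene on the same strand that begins 518 bases past the HDGF gene and is named after its values were seen, had 89.28 CPM ± 4.04 and 110.1 CPM ± 9.23 (SD, n = 3 each; log2 fold change 0.30, edgeR adjusted p = 0.0948). Groups were also apart for SH2D2A, an adaptor gene 39317 bases from HDGF (log2 fold change 0.69, edgeR adjusted p = 0.078), and for BNC1, a zinc finger gene 48079 bases from HDGFL3 (-0.55, edgeR adjusted p = 0.0834), both named after their values were seen. The same held for AC011498 (ENSG00000280239), 21460 bases from HDGFL2, at 1.15 and 1.59 CPM (0.47, edgeR adjusted p = 0.281), also named after its values were seen. Over all tested genes the groups were apart for 26.6%. The genes overlapping the other members and tested were SNAPC3 beside PSIP1 (log2 fold change 0.02), TM6SF1 beside HDGFL3 (-0.13) and PLIN4 beside HDGFL2 (-0.12), and none passed the edgeR threshold. Of 24 neighbours and overlapping genes of the 4 members 11 were tested, and by edgeR 0 were called in either direction, where 4.65% of all tested genes were. Of these neighbours 3 had an unadjusted edgeR p under 0.05, and DESeq2 called 3 of the 10 it gave an adjusted p, in both cases MRPL24, SH2D2A and BNC1. Over all tested genes 19.1% had an unadjusted edgeR p under 0.05, and DESeq2 called 17.1% of those it gave an adjusted p. With so few neighbours nothing is read from these counts.

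**Figure D4:**
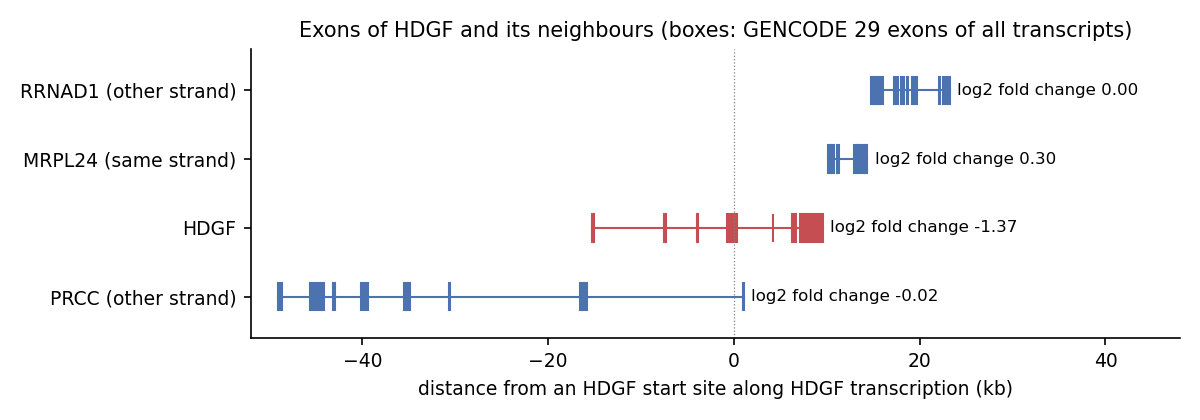
Exons of HDGF, PRCC, MRPL24 and RRNAD1 in kilobases from the start site of the printed HDGF promoter window, along the direction of HDGF transcription. Boxes are GENCODE 29 exons of all transcripts and the numbers are log2 fold changes of SIGLEC15 siRNA against control siRNA, -1.37 for HDGF and -0.02 for PRCC, whose exons do not touch those of HDGF.

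Genes with a like profile were looked for by the root mean square difference of log2(CPM + 1) over the 6 libraries, each gene centred on its own mean, among 9796 other genes with a symbol and a mean of at least 10 CPM. Nearest to HDGF were GJB2 (0.0534), which encodes the gap junction protein connexin 26, GTF2F1 (0.0541), the large subunit of the general transcription factor TFIIF, CCNDBP1 (0.0638), a cyclin D-binding protein, PEA15 (0.0679), a cytoplasmic ERK-binding protein, and RGCC (0.0681), a regulator of the cell cycle. The median over all candidates was 0.706. GJB2, GTF2F1, CCNDBP1, PEA15 and RGCC were each called lower by edgeR (log2 fold change -1.62 to -1.27), where 2.43% of all tested genes were. Both the nearness of these genes and the size of the median largely restate the group difference that HDGF was picked for. They are no separate result. GTF2F1 had 100.7, 97.38 and 117.9 CPM in the control libraries and 41.7, 37.9 and 40.77 CPM in the others. The control values of GTF2F1 were highest in library 3, as those of HDGF were.

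The profiles of the paralogs led to other genes. Nearest to PSIP1 were WAC (0.0893), a chromatin adaptor, ZNF614 (0.0956), a zinc finger gene, and POLR2M (0.103), a gene of the RNA polymerase II machinery. These had their lowest control value in library 2 and their lowest SIGLEC15 siRNA value in library 1, as PSIP1 did. They were picked for likeness over these same libraries, so their shared low libraries are no separate result. POLR2M, for one, had 60.11, 39.78 and 52.98 CPM in the control libraries and 38.66, 53.32 and 58.52 CPM in the others. Nearest to HDGFL3 were PRKAR2A (0.0235), a regulatory subunit of protein kinase A, the mitotic kinesin KIF20A (0.0266) and LRRC49 (0.0273). Nearest to HDGFL2 were CNDP2 (0.028), a dipeptidase, the ubiquitin ligase UBE3B (0.0338) and the inositol phosphate kinase IP6K2 (0.035). The median over all candidates was 0.307 for PSIP1, 0.258 for HDGFL3 and 0.179 for HDGFL2.

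Genes related to this family by a shared domain, a histone mark, binding partners or a shared property were looked at next. Over 6 related lists with 70 tested genes, each counted once, edgeR called 2 higher and 5 lower, 10.0% against 4.65% of all tested genes. Without CCN1 and CCN2, which were known as lower before the lists were written, 5 of 68 were called (7.35%). All 6 lists were written with earlier results of these data known, so neither share is independent of them. The counts and medians below describe the lists, with no set test.

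Of 18 other genes with a PWWP domain, all tested, 1 rose, 1 fell and 16 did not pass (median log2 fold change -0.03). By edgeR 11.1% of the list was thus called, against 4.65% of all tested genes. An unadjusted edgeR p under 0.05 was seen for 4 of the 18, where 19.1% of all tested genes had one. DESeq2 called 4 of 18 (22.2%), where it called 17.1% of the genes it gave an adjusted p. DNMT3B, the de novo DNA methyltransferase whose PWWP domain reads H3K36 methylation, had 5.07, 6.12 and 4.5 FPKM in the control libraries and 14.31, 11.6 and 9.83 FPKM in the others. Its groups were well apart, and it rose 2.28-fold (log2 fold change 1.19, SE 0.172, edgeR adjusted p = 0.0157). PWWP3B, a relative of the chromatin factor PWWP3A, had 2.2, 1.88 and 1.72 FPKM in the control libraries and 0.765, 1.18 and 0.715 FPKM in the others. It fell 2.18-fold (log2 fold change -1.12, SE 0.214, edgeR adjusted p = 0.0366). The related methyltransferase DNMT3A, named after its values were seen, had a log2 fold change of 0.25 (SE 0.212). DNMT3B missed the threshold without control library 1, control library 3 or SIGLEC15 siRNA library 2 (edgeR adjusted p = 0.0662, 0.062 and 0.0656). PWWP3B missed it without any library but SIGLEC15 siRNA library 2 (edgeR adjusted p = 0.116, 0.11 and 0.0825 without control libraries 1, 2 and 3, and 0.111 and 0.0977 without SIGLEC15 siRNA libraries 1 and 3), and with no filter on low counts (0.0527).

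The mark that these domains read is set by SETD2 and the NSD enzymes and removed by KDM2 and KDM4 demethylases. Of 12 such writers and erasers, all tested, 0 rose, 1 fell and 11 did not pass (median log2 fold change -0.03). By edgeR 8.33% of the list was thus called, against 4.65% of all tested genes. An unadjusted edgeR p under 0.05 was seen for 1 of the 12, where 19.1% of all tested genes had one. DESeq2 called 1 of 12 (8.33%), where it called 17.1% of the genes it gave an adjusted p. The demethylase KDM4A had 19.65, 17.43 and 18.78 FPKM in the control libraries and 14.84, 15.42 and 13.85 FPKM in the others. It fell 1.27-fold (log2 fold change -0.34, SE 0.0717, edgeR adjusted p = 0.0491), just inside the threshold. SETD2, the enzyme of H3K36 trimethylation, named after its values were seen, had a log2 fold change of -0.04 (SE 0.113). KDM4A missed the threshold when any single library was left out (edgeR adjusted p = 0.145, 0.0877 and 0.135 without control libraries 1, 2 and 3, and 0.106, 0.134 and 0.129 without SIGLEC15 siRNA libraries 1, 2 and 3), with median-of-ratios scaling (0.0505) and with no filter on low counts (0.0742).

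Of 15 binding partners of PSIP1, among them KMT2A, menin (MEN1), POGZ and CDCA7L, edgeR called 0 in either direction (median log2 fold change -0.07). Of these partners 4 had an unadjusted edgeR p under 0.05, where 19.1% of all tested genes did. DESeq2 called 2, where it called 17.1% of the genes it gave an adjusted p. The most abundant were WDR5, a subunit of KMT2 complexes, with 27.61 FPKM ± 0.741 and 27.92 ± 0.816, and the splicing factor SRSF1 with 23.49 ± 2.01 and 26.02 ± 2.21 in the control and SIGLEC15 siRNA groups (SD, n = 3 each). Of the 4 partners and reported targets of HDGF 3 were tested, since SMYD1 had no counts, and edgeR called 0, while 1 had an unadjusted edgeR p under 0.05 and DESeq2 called 1. Nucleolin (NCL), a binding partner of HDGF at the cell surface, had 224.4, 227.0 and 238.3 FPKM in the control libraries and 224.1, 218.4 and 243.6 FPKM in the others (log2 fold change -0.01, SE 0.069). VEGFA, an angiogenic factor reported to respond to HDGF, had 9.41 FPKM ± 0.466 and 7.91 FPKM ± 0.695 (SD, n = 3 each), and its groups did not overlap (log2 fold change -0.25, edgeR adjusted p = 0.114).

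HDGF binds heparin, as many secreted growth factors do. Of 19 heparin-binding factors 16 were tested, of which 1 rose and 3 fell, while 12 missed the threshold. By edgeR 25% of the 16 were thus called, against 4.65% of all tested genes. An unadjusted edgeR p under 0.05 was seen for 10 of the 16, where 19.1% of all tested genes had one. DESeq2 called 9 of 16 (56.25%), where it called 17.1% of the genes it gave an adjusted p. The median log2 fold change of the list was -0.31 against -0.01 over all tested genes. The matricellular factor CCN2 had 107.1, 137.5 and 119.1 FPKM in the control libraries and 37.13, 33.44 and 48.21 FPKM in the others. It fell 3.06-fold (log2 fold change -1.61, SE 0.164, edgeR adjusted p = 0.00539). CCN1, of the same family, fell 1.53-fold from 115.4 FPKM ± 3.0 to 75.17 FPKM ± 5.91 (SD, n = 3 each; edgeR adjusted p = 0.0123). The mitogen FGF2 fell 1.58-fold from 3.33 FPKM ± 0.28 to 2.11 FPKM ± 0.224 (edgeR adjusted p = 0.0274). PDGFB, a chain of platelet-derived growth factor, rose 1.93-fold from 0.886 FPKM ± 0.0881 to 1.72 FPKM ± 0.161 (edgeR adjusted p = 0.0159). As CCN1 and CCN2 were already known as lower, they are no independent sign of the list's direction. FGF2 missed the threshold when any single library was left out (edgeR adjusted p = 0.0888, 0.103 and 0.0625 without control libraries 1, 2 and 3, and 0.0683, 0.0912 and 0.0608 without SIGLEC15 siRNA libraries 1, 2 and 3). PDGFB missed it without control libraries 2 or 3 (0.0701 and 0.0609) and without SIGLEC15 siRNA libraries 2 or 3 (0.0706 and 0.053), and CCN1 without control library 2 (edgeR adjusted p = 0.058).

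HMG proteins are abundant DNA-binding proteins of chromatin to which HDGF was likened when it was cloned. Of 10, all tested, edgeR called 0 (median log2 fold change -0.03). HMGA1 had 240.4 FPKM ± 6.33 and 242.7 FPKM ± 2.62 in the control and SIGLEC15 siRNA groups, a log2 fold change of 0.01 (SE 0.0517). HMGB2 had 114.8 FPKM ± 26.9 and 84.78 FPKM ± 20.1 (SD, n = 3 each), with groups that overlapped. Of the 10 genes 1 had an unadjusted edgeR p under 0.05, where 19.1% of all tested genes did, and DESeq2 called 1. Over all 6 lists DESeq2 called 17 of 70 genes (24.3%), where it called 17.1% of the 17043 genes it gave an adjusted p.

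**Figure D5:**
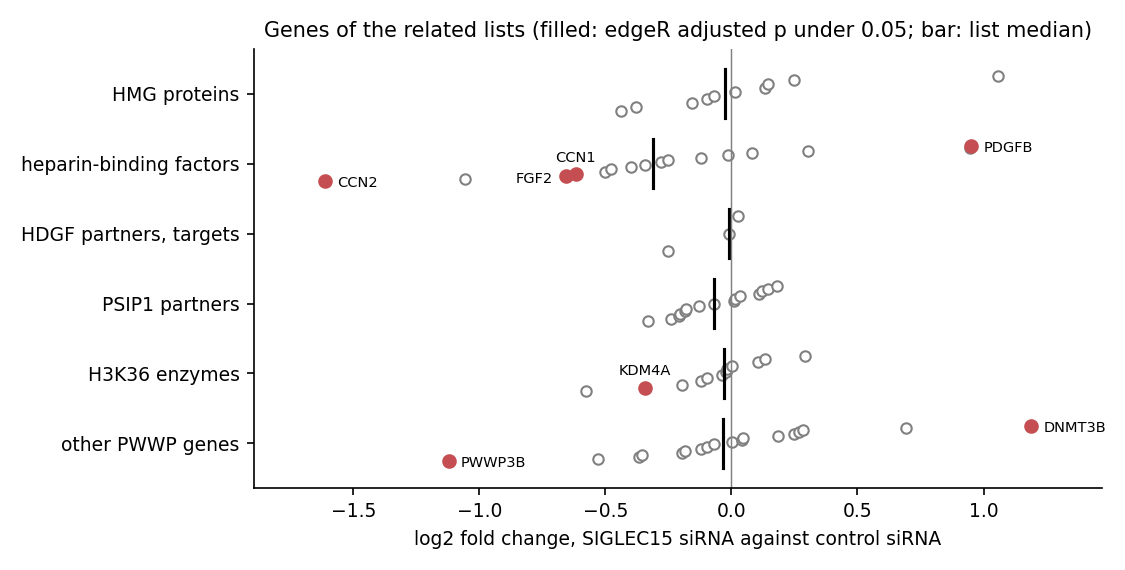
Log2 fold change of every tested gene of the 6 related lists, 1 row per list. Filled points passed the edgeR threshold (adjusted p under 0.05) and are named, open points did not, and black bars are list medians, lowest for heparin-binding factors at -0.31.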

How the data were processed

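The series holds 6 poly(A) RNA-seq libraries of 143B cells, 3 per siRNA. Per the file headers, the deposited table gives each gene a whole-number count and an FPKM value in every library. HISAT, StringTie and edgeR appear in the submitters' processing notes. Their versions, the genome build and the strand setting were not given in the sources used here. FPKM lists a gene without counts at 0.0001.

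The test on counts was that of edgeR 4.0.16 (R 4.3.3): filterByExpr (minimum count 10, minimum total 15), TMM scaling, the quasi-likelihood F test over all 6 libraries with no covariate, and Benjamini-Hochberg adjustment over 18910 tested genes. A gene with an adjusted p under 0.05 was called. Each SE was taken from the log2 fold change and its F statistic (ratio of the first to the root of the second).

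The members, the lists and the rule for named genes were chosen with earlier results of these data known. Named are the members, HDGFL1 and SIGLEC15, the called list genes with the smallest p (up to 4 per list and direction) or, with none called, the 2 of highest mean FPKM, neighbours that overlap a member or are called, and the genes of nearest profile (5 for HDGF, 3 for each other member). Cell markers, HDGFP1, SMYD1, RRNAD1 and examples of list members are named outside this rule, and MRPL24, SH2D2A, BNC1, AC011498, DNMT3A and SETD2 after their values were seen.

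Alternatives were median-of-ratios and upper-quartile scaling, no filter beyond 1 count, a mean FPKM of at least 5, the DESeq2 1.42.0 Wald test, limma-trend (limma 3.58.1) on log2(FPKM + pseudocount) for pseudocounts of 1 and 0.1 where FPKM averaged 1 or more, the replicate number as a block, and each library left out in turn.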

Additional observations from a re-analysis of the deposited data

How the results depend on the processing

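Under the 14 alternatives the log2 fold change stayed between -1.41 and -1.33 for HDGF, -0.32 and -0.01 for PSIP1 and -0.18 and -0.03 for HDGFL2, and under 13 between -0.45 and -0.31 for HDGFL3, which a mean FPKM of at least 5 leaves out. No member changed sign. The differences of log2 ratios moved by less than the spread between libraries, and so did the HDGF share of the family in the control group, which was 68.9%, and 68.5% with counts per kilobase of GENCODE exon length. That length is nearly proportional to the one behind FPKM for all 4 members, so the similar shares do not check the length scaling. SIGLEC15 did not pass under the 10 alternatives that gave it an adjusted p (0.523 to 0.84), and DESeq2 gave it none. DESeq2 called 2916 genes, 1469 higher and 1447 lower, against 879, 419 and 460, and the cause was not tested. Leaving out 1 library gave 260 to 431 calls, 108 to 189 higher and 151 to 242 lower, with fewer samples in the fit. Among the list genes, 2 higher and 5 lower became 6 and 11 with DESeq2, 1 and 3 with a mean FPKM of at least 5, where fewer genes are tested, 0 to 2 and 1 to 4 without 1 library, 3 lower with no filter and 4 lower with median-of-ratios scaling. A fit with a replicate block called 50 genes, 15 higher and 35 lower, and of the list genes 0 and 0. Deviations from the group means showed no pairing by number (r = -0.0712, 0.00662 and -0.117 for numbers 1, 2 and 3, and 1 of 6 libraries correlated best with their own number), so the block is no measure of a weaker effect. None of the 7 called list genes changed direction under any alternative that kept it.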
